A study of Homo sapiens with 2 samples.

Results

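The 986 regions described here are stretches of chromatin away from protein-coding genes that were recovered with both GFI1 antibodies used in NB4 cells. They were chosen by position and by overlap. A region was taken when its ab21061 peak shared at least 1 bp with an sc8558 peak, and when the midpoint of the ab21061 peak lay outside every protein-coding gene and more than 10 kb and up to 100 kb from the nearest end of such a gene. Of the 7687 ab21061 peaks 4896 (63.7%) overlapped an sc8558 peak at any position, and the 986 regions are 20.1% of those that overlapped an sc8558 peak. Overlap and position are therefore not results about these regions, and are given as a description.

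The study used chromatin immunoprecipitation followed by sequencing in NB4, an established acute promyelocytic leukemia line, to map where GFI1 sits on DNA. There was 1 library with the antibody ab21061 and 1 with sc8558, each labelled as directed against GFI1, and no treatment or genetic change is named for either. The labels are not uniform, since the immunoprecipitation protocol speaks of PML/RARα antibodies and 1 sample title reads GFI2. With 1 library per antibody in a single cell line there is no replicate check, and the values below describe these libraries. Sequencing depth is unknown.

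GFI1 is a DNA-binding repressor of transcription with zinc fingers and a SNAG domain, through which it recruits the demethylase LSD1, CoREST and histone deacetylases. It is required for neutrophil development and restrains monocyte genes and blood stem cell division. Its zinc fingers read a site with an AATC core. Intergenic binding of such factors is commonly found at enhancers, which can act on a gene over long distances and need not act on the nearest one, so a gene named below only marks where a region lies.

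The deposited files give positions, so bases can be shown where a region covers an annotated gene start. Such starts belonged to genes of types other than protein-coding. In 22 of the 986 regions (2.23%, exact 95% interval 1.4 to 3.36) the ab21061 peak touched a RefSeq start window. Such a window runs from 250 bases before to 50 bases after an annotated start, which can lie inside the span of its gene. There were 24 such windows of 22 genes, all long non-coding RNA genes, and 18 of the windows lay wholly under the peak. Of the 524 peaks in the same position class without an sc8558 partner, 16 (3.05%, 1.76 to 4.91) touched a start window. The windows of the 5 best-ranked regions among the 22 are shown, with that of LUCAT1, which lies in the group of regions near ARRDC3. They are RefSeq sequences of build GRCh38.p14, written 5′ to 3′ on the strand of the gene, with each match to AATCA or its reverse complement in capitals.
LOC107986092, chr3:58471123-58471422, plus strand: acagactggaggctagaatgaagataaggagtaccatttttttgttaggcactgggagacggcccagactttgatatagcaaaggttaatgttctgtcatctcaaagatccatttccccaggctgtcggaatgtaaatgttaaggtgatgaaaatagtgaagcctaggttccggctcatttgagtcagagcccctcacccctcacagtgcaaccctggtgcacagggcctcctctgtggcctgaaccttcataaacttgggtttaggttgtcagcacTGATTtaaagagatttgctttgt
LINC02366, chr12:10749984-10750283, plus strand: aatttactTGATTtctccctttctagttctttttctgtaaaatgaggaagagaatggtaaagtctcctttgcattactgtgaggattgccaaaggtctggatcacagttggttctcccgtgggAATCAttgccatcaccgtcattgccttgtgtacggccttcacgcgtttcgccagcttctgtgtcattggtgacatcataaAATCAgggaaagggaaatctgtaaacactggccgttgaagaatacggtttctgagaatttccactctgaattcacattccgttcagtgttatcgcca
LINC02265, chr4:40316234-40316533, plus strand: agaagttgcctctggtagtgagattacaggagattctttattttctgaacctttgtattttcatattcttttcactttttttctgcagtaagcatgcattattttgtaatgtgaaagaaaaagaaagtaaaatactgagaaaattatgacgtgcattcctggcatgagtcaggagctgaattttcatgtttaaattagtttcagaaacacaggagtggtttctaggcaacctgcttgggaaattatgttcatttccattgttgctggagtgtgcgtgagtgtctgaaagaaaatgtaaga
LOC101927949, chr1:152049838-152050137, minus strand: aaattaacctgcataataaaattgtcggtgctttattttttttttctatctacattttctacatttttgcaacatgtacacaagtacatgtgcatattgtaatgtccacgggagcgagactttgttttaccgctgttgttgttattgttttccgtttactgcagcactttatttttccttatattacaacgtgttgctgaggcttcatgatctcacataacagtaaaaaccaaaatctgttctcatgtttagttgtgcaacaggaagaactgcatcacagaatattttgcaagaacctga
HCG11, chr6:26521456-26521755, plus strand: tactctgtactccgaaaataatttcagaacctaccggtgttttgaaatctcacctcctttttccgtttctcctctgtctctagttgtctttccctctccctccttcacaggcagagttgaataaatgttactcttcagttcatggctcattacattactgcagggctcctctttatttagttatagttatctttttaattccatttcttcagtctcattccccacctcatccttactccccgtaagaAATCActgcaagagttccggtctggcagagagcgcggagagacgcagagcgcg
LUCAT1, chr5:91314353-91314652, minus strand: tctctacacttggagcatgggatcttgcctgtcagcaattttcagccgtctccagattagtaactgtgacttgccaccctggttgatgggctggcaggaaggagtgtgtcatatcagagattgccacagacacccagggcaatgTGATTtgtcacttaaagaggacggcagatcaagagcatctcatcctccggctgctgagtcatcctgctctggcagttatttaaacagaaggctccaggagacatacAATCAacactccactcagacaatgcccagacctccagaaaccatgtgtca

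LOC107986092 has an annotated start inside the second-ranked region of all, 169 bp from the midpoint of its ab21061 peak. This start is internal, since the nearest end of the gene is 13554 bp from the midpoint of the peak. That peak scored 2098 and its sc8558 partner 1986, where a score is the peak caller's own value and grows as the p-value of the peak falls. LINC02366 starts 147 bp from the midpoint of a region with scores of 813 and 777. The midpoint of a region with scores of 516 and 535 lies inside LINC02265, 9752 bp from its nearest end. An annotated start of this gene lies 453 bp from that midpoint, and its window holds 0 matches to AATCA. LOC101927949, 12.8 kb from the calcium-binding protein gene S100A11, starts 72 bp from a midpoint with scores of 349 and 277 and also holds 0. HCG11, a non-coding gene among the butyrophilin genes on chromosome 6, starts 5 bp from the midpoint of a region with scores of 280.5 and 438. The transfer RNA gene TRL-CAG1-7 lies 411 bp from the same midpoint. LUCAT1, a stress-responsive long non-coding RNA, starts 112 bp from the midpoint of a region with scores of 119 and 143. Across the 22 regions the median scores were 109 with ab21061 and 136 with sc8558, and the ab21061 scores ran from 52.2 for the start of LINC02695 to 2098.

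Matches to the GFI1 core AATCA, searched on both strands, stood in 14 of the 24 windows (58.3%, 36.6 to 77.9). The share was 34.5% over all 35116 RefSeq start windows, below that interval. It was 42.4% over the 12917 windows of genes of other types and 45.7% over 457 windows touched by other shared peaks, both within it. A longer core, AAATCNC, which overlaps AATCA in part, stood in 9 of the 24 (37.5%, 18.8 to 59.4), against 12.4% of the windows of other gene types and 20.8% (17.2 to 24.8) of those under other shared peaks. The AP-1 motif TGANTCA and the GATA motif AGATAA each stood in 7 of the 24 (29.2%, 12.6 to 51.1). In the windows of other gene types they stood in 10.4% (below the interval) and 14.5% (within it). Under other shared peaks they stood in 8.32% and 10.3%, both below it. The ETS motif CCGGAA also stood in 7, against 10.5% of the windows of other gene types. Here the windows under other shared peaks were close, at 26.7%. The RUNX motif TGTGGT stood in 2 (8.33%, 1.03 to 27.0) against 16.2%, and the PU.1 motif GAGGAAG in 3 (12.5%, 2.66 to 32.4) against 12.3%. The C/EBP motif TTGCNNCAA stood in 1 (4.17%) against 2.50%, and its looser form TTNCNNAA in 16 (66.7%, 44.7 to 84.4) against 46.2%. The E-box CANNTG stood in 18 (75%) against 74.9%. Under other shared peaks the looser form stood in 43.1%, below its interval. RUNX, PU.1, TTGCNNCAA and the E-box stood in 10.9%, 16.0%, 1.53% and 62.4% there, each within its interval. The 24 windows were poorer in G and C than others, with a median of 44.8%, against 50% for genes of other types and 60% under other shared peaks. The part of this base composition in the motif shares was not tested. The intervals were not adjusted for the 10 motifs searched, which were read only in the start windows, which a small part of the regions touch.

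The regions differed widely in strength. The ab21061 scores ran from 50.1 to 2290 with a median of 108 and quartiles of 73.7 and 183. The scores of the sc8558 partners ran from 50.1 to 2023 with a median of 110 and quartiles of 74.4 and 171. Scores of 100 or more in both lists were found for 408 regions (41.4%), of 200 or more for 162 (16.4%), of 500 or more for 38 (3.85%) and of 1000 or more for 8. Across the 986 regions the scores of the antibodies had a Spearman rho of 0.692, and the widths one of 0.655. In the other position classes of shared peaks rho for scores ran from 0.680 to 0.748. Regions are not independent replicates, and in both lists a wider peak tended to have a higher score (rho 0.626 and 0.585).

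**Figure D1:**
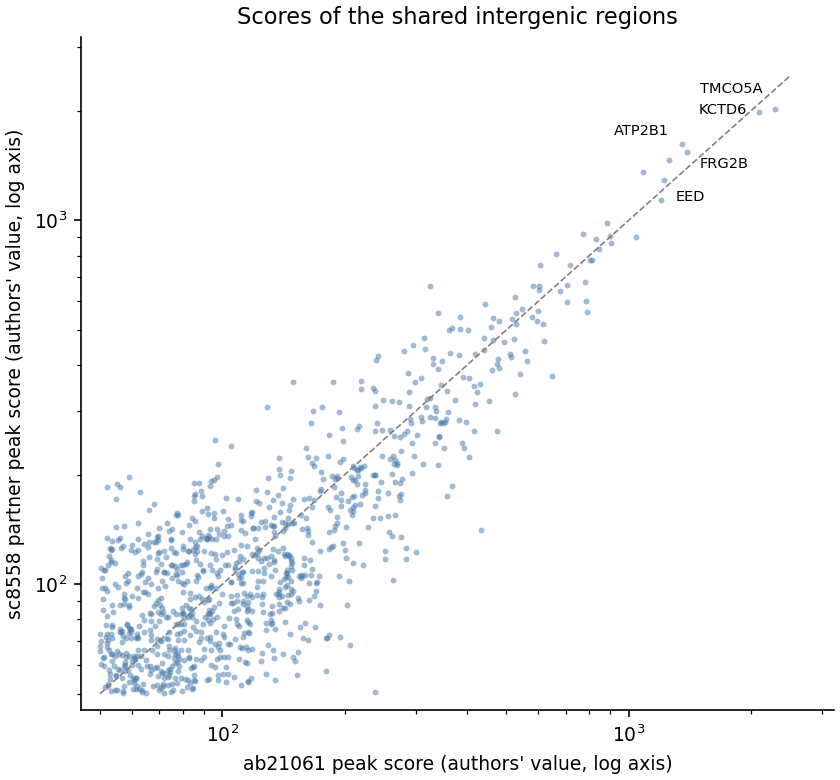
Deposited score of each of the 986 shared intergenic regions with ab21061 (horizontal) and of its sc8558 partner (vertical), both on log axes, with the line of equal scores dashed for orientation only, since the depths of the libraries are unknown. Among these regions, all chosen for having a partner, 8 of the 10 highest with each antibody are the same, at the upper right.

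Among the regions, all of which have a partner by the rule, the strongest were largely the same with either antibody. A strong peak found with 1 antibody alone could not appear in these ranks. The highest ab21061 peak of the class without a partner scored 847. Of the 10 regions with the highest ab21061 score 8 were also among the 10 with the highest sc8558 score, and of the top 100 in each list 78 were shared. Further down the order was looser, with a median difference of 128 ranks over all regions. The largest differences, picked after the values were seen, were a region 70.4 kb from HS2ST1 with scores of 238 and 50.5 (ranks 175 and 982) and a region 16.2 kb from RNF19B with 51.9 and 185 (ranks 966 and 219).

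The peaks of a pair lay close together, which the rule sets in part, since only overlapping peaks form a pair. The midpoints were a median of 71.0 bp apart, with quartiles of 32.0 and 142 bp, and 632 of the 986 pairs (64.1%) were within 100 bp. The overlap covered a median of 99.8% of the narrower peak, and in 489 pairs (49.6%) the narrower peak lay wholly inside the other. In 31 pairs the midpoints were over 500 bp apart, up to 2755 bp. A single sc8558 partner was found for 966 regions and more than 1 for 20. The highest-scoring partners were 975 different sc8558 peaks, since 22 regions shared theirs with a neighbouring region. Median widths were 871 bp (365 to 6214) with ab21061 and 830 bp (344 to 6709) with sc8558.

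Scores in this position class were close to those of shared peaks elsewhere, apart from sc8558 scores over 100 kb from genes. The median ab21061 score of 108 (interval of the median 101 to 113) compares with 114 (103 to 128) within 1 kb of a gene end, 110 (104 to 116) at 1 to 10 kb, 111 (106 to 117) over 10 kb inside a gene and 101 (96.6 to 105) over 100 kb from genes. The interval of the regions overlaps each of the others. In the sc8558 list the median of overlapped peaks was 109 (105 to 114) in this class. It was 98.1 (94.4 to 102) over 100 kb away, an interval that does not overlap. The other sc8558 classes had medians from 106 to 115, with intervals that overlap that of this class. Width was greatest within 1 kb of a gene end and smallest over 100 kb from genes. The median was 980 bp (949 to 1017) within 1 kb of an end, 871 bp (855 to 890) in the class described here and 714 bp (696 to 727) over 100 kb away, and these intervals do not overlap. At 1 to 10 kb it was 897 bp (877 to 914), which overlaps the interval of this class. In bins of distance within the class medians ran from 839 to 901 bp, the highest at 20 to 30 kb. The share of ab21061 peaks with an sc8558 partner was 65.3% (986 of 1510, 62.8 to 67.7) in this class, close to the 63.7% of all ab21061 peaks. It was 58.8% over 100 kb away and 71.4% within 1 kb of a gene end, which is a description, since overlap and position chose the regions. Within the class the share with a partner was 34.2% at scores from 50 to 60, 66.4% from 80 to 100 and 99.5% at 200 or more, where 221 of 222 were overlapped. The 524 peaks without a partner had a median score of 62.2 and a median width of 685 bp.

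The region with the highest score in both lists lay on chromosome 15 from 38129469 to 38131766, 89.8 kb from TMCO5A, with scores of 2289.8 and 2023. The next, on chromosome 3 from 58470211 to 58472198, is the one that covers the internal start of LOC107986092 shown above. It lay 20.9 kb from the start of KCTD6, which encodes an adaptor of a cullin ubiquitin ligase. The third, on chromosome 10 from 133686187 to 133690513, had scores of 1394 and 1544 and was 4327 bp wide, near the end of the chromosome and 61.6 kb from FRG2B. FRG2B belongs to a family of near-identical copies, so reads there may come from several places.

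A pair of strong regions stood above ATP2B1, which encodes a calcium pump of the plasma membrane. They lay 24.9 and 47.9 kb from the gene's start on chromosome 12, within the non-coding gene LOC107984543. The nearer, from 89733423 to 89735016, scored 1351 and 1625, and the other, from 89756351 to 89758239, scored 1259 and 1471. Another region, 80.7 kb from that start, was far weaker in both lists (134 and 116).

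EED, a core subunit of the Polycomb repressive complex 2, had 3 regions before its start on chromosome 11. The middle one, 42.6 kb away from 86200855 to 86203508, scored 1219 and 1289. Its neighbours at 39.1 and 51.0 kb scored 84.1 and 51.6, and 52.2 and 95.5. The first of these neighbours had the lower value with sc8558 and the other with ab21061, so the weak flanks did not keep their order between antibodies.

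The remaining best-ranked regions lay near genes of varied function. ZFP36L1, an RNA-binding protein that promotes mRNA decay, had a region at 45.8 kb with scores of 898 and 908, on chromosome 14 from 68741252 to 68742384. LRRC8C, a subunit of an anion channel regulated by cell volume, had regions at 34.9 and 38.4 kb on chromosome 1, and the farther scored 885 and 982. GNA12, a G protein alpha subunit, had a region at 19.6 kb with scores of 845 and 834. IRF2BPL had one at 68.2 kb (802 and 777), MYO18A one at 15.6 kb (781 and 678), and PCDHB1, a protocadherin gene, one at 10.6 kb (716 and 752). TMC1, known from hair cells of the inner ear, had one at 77.9 kb (1045 and 898), and ZNF330 one at 94.6 kb (906 and 865). ZNF334 (1087 and 1358 at 11.2 kb), LIPM, a lipase gene (1203 and 1142 at 10.1 kb), and ZC3H7A (830.1 and 890.0 at 12.6 kb) complete the group with a region of chromosome 12 in LINC02366 and regions near BTG1 and ARRDC3 described below. Of these 20 best-ranked regions 12 lay nearest to the start and 7 to the finish of the named gene, and 7 lay inside a gene of another type.

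At the other end of the range, the 5 regions with the lowest sum of scores were nearest to UBE2D1 (51.6 and 52.0), FCGR3A (53.3 and 51.0), KCNK5 (52.4 and 52.4), LY86 (54.4 and 51.0) and ARRDC3 (52.3 and 53.1). All 5 sat close to the lowest score in the lists. The same genes could hold strong and weak regions, as ARRDC3 did with scores up to 705. Among the regions nearest to the limits of the position class, ab21061 scores spanned a wider range just inside than just outside. Just inside 10 kb were regions near HS3ST3B1 (10004 bp, 123 and 118), GARIN4 (10051 bp, 61.4 and 55.4) and LYZ (10058 bp, 476 and 416), and just outside were ZNF287 (9982 bp, 98.2 and 85.7), OR2AG2 (9977 bp, 95 and 86.5) and CHST15 (9908 bp, 155 and 125). Just inside 100 kb were SPRY2 (99831 bp, 433 and 141), SLC38A4 (99628 bp, 99.8 and 121) and JUN (99444 bp, 84.2 and 152), and just outside PRSS58 (100391 bp, 145 and 170.5), CYP1B1 (100742 bp, 121 and 174) and SLC38A2 (101158 bp, 90.9 and 53.6).

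The regions thinned out with distance from genes. The stretches of the genome that lie 10 to 100 kb from a protein-coding gene and outside all of them add up to 600 Mb by RefSeq, and held 1.64 regions per Mb. From 10 to 20 kb there were 273 regions, or 1.98 per Mb (exact Poisson 95% interval 1.75 to 2.23). From 20 to 30 kb the density was 1.76, from 30 to 50 kb 1.67 and from 50 to 75 kb 1.59 per Mb. From 75 to 100 kb there were 98 regions, or 1.05 per Mb (0.851 to 1.28), an interval below those of the other bins. Beyond 100 kb it was 1.10 shared peaks per Mb. Scores did not thin out in the same way, with median ab21061 scores between 103 and 112 and median sc8558 scores between 100 and 116 in the 5 bins. Intervals cover counting error only, and unsequenced gaps were counted as sequence.

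**Figure D2:**
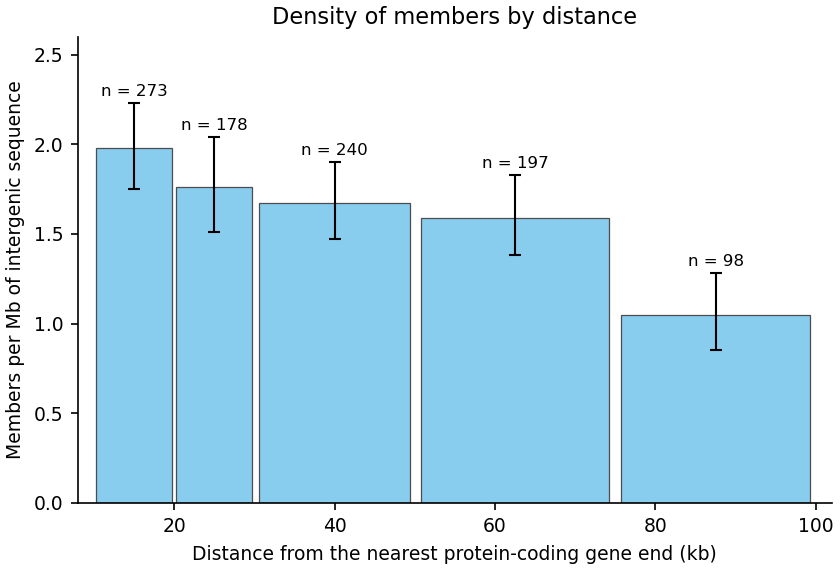
Regions per Mb of intergenic sequence (bars, exact Poisson 95% intervals) in 5 bins of distance from the nearest protein-coding gene end, with the number of regions above each. Density is 1.98 per Mb at 10 to 20 kb and 1.05 per Mb at 75 to 100 kb.

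Regions lay somewhat more often on the start side of the nearest gene than on its finish side. The RefSeq start windows gave the strand of the nearest gene for 788 regions, and 467 of them (59.3%, 55.7 to 62.7) were nearest to a gene start. Of the intergenic sequence in the same range with a known strand 54.5% was nearest to a start, below that interval. Peaks of the class without a partner had 57.0% (52.1 to 61.7), and the difference of 2.29 points (-3.50 to 8.13) from the regions included 0. Strength did not follow this split, with median ab21061 scores of 103 at starts and 111 at finishes, and sc8558 medians of 109 and 112.

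Among the autosomes and X, densities ran from 0.396 per Mb on X (16 regions, 0.226 to 0.643) to 2.52 on chromosome 20 (34 regions, 1.74 to 3.52). Chromosomes 13 (47 regions, 2.50 per Mb, 1.84 to 3.33), 12 (69 regions, 2.47, 1.92 to 3.12), 5 (77 regions, 2.12, 1.68 to 2.65) and 1 (104 regions, 2.09, 1.71 to 2.53) also had intervals above the mean of 1.64. Chromosome 18 (9 regions, 0.588 per Mb, 0.269 to 1.12) and 19 (7 regions, 0.768, 0.309 to 1.58) had intervals below it, as did X. Chromosome Y held 0 regions in 5.51 Mb of such sequence, with an interval up to 0.669 per Mb. These intervals were not adjusted for the number of chromosomes. Chromosome copy number in this line was not measured here and its part in these densities was not tested.

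**Figure D3:**
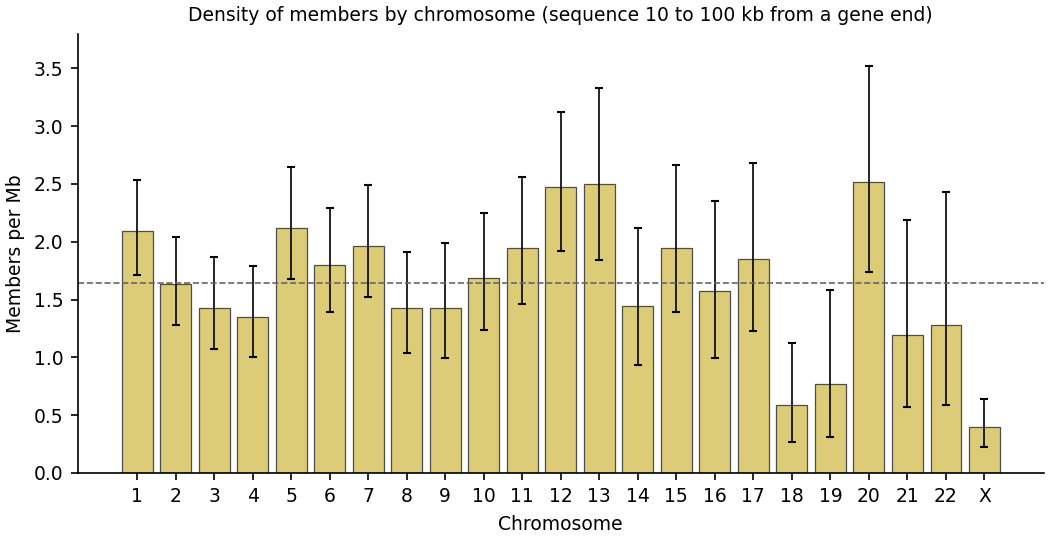
Regions per Mb of sequence 10 to 100 kb from a protein-coding gene, for the autosomes and X (bars, exact Poisson 95% intervals), with the mean of 1.64 over all chromosomes dashed. X, 18 and 19 have intervals below the mean.

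Some regions came in groups. Chains of regions with gaps of at most 25 kb numbered 847, of which 743 held a single region. The other chains held 243 regions (24.6%), with up to 6 in a chain. Median ab21061 scores were 107 in chains and 110 outside them, and sc8558 medians were 115 and 109. The chain with the most regions, on chromosome 3 from 171943172 to 171987104, held 6 between TMEM212 and FNDC3B, of which a pair met the same sc8558 peak, with ab21061 scores from 54.9 to 390.4. Its strongest member, 53.8 kb before the start of FNDC3B, scored 390.4 and 372. Other large chains were nearest to ARRDC3, ZNF365 and ZNF217 (5 each), TMPO, RELL1 with PGM2, and GLRX with ELL2 (4 each), and EED, ZC3H7A and BTG1 (3 each, chosen by summed score among chains of this size).

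A total of 808 genes were nearest to at least 1 region, which is 4.03% of the 20037 protein-coding genes and 6.83% of the 11828 that have any sequence in the window. Of these, 677 had 1 region and 131 had more, in some cases from neighbouring peaks that met the same sc8558 peak. Genes with 4 or more numbered 8. With an even spread over the window, each of those 8 genes would have had between 0.149 and 0.296 regions. The 8 genes were picked for their number of regions, so a number above this was fixed by the choice.

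ARRDC3, which encodes an alpha-arrestin, had 6 regions. The strongest lay 56.6 kb past its finish within LUCAT1, on chromosome 5 from 91311426 to 91312572, and scored 705 and 665. The next, before the start at 86.0 kb, scored 238 and 341, and the other 4 lay between 52.3 and 119 with ab21061 and between 53.1 and 143 with sc8558. TMPO, the gene of a protein of the nuclear lamina, also had 6, all before its start on chromosome 12. Those at 75.4 and 51.5 kb scored 649.6 and 373, and 529 and 558, so which of them was higher depended on the antibody. A region between them at 68.6 kb scored 168 and 171, and the other 3 scored between 60.7 and 118 with ab21061 and between 51.1 and 92.3 with sc8558.

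BTG1, an antiproliferative gene, had 4 regions, and the strongest, 88.1 kb before the start on chromosome 12 from 92233165 to 92234685, scored 772 and 919.7. Its neighbour at 86.3 kb scored 142 and 143, and those at 63.0 kb before the start and 69.0 kb past the finish scored 132 and 77.7, and 87.8 and 92.8. CXCR4, the receptor for the chemokine CXCL12 that holds blood cells in the marrow, had 4 weaker regions before its start on chromosome 2. At 18.1 kb, from 136135433 to 136137153, the scores were 174 and 124. At 50.8, 65.5 and 92.6 kb they were 63.8 and 53.0, 91.4 and 71.0, and 73.7 and 55.6, so the nearest was the highest with both antibodies.

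ZNF217, a transcription factor gene, had 5 regions before its start, from 45.3 to 82.6 kb, and the farthest was the strongest (352 and 279.8). ZNF365 had 5 past its finish, from 12.3 to 65.6 kb, the strongest scoring 258 and 220.4 at 23.1 kb. CDC42EP3, an effector of the GTPase Cdc42, had 4, the strongest at 89.4 kb with 346 and 411. In ZNF217 and CDC42EP3 a pair of neighbouring ab21061 peaks met the same sc8558 peak, so the number of separate sites there is 1 lower in the sc8558 list.

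**Figure D4:**
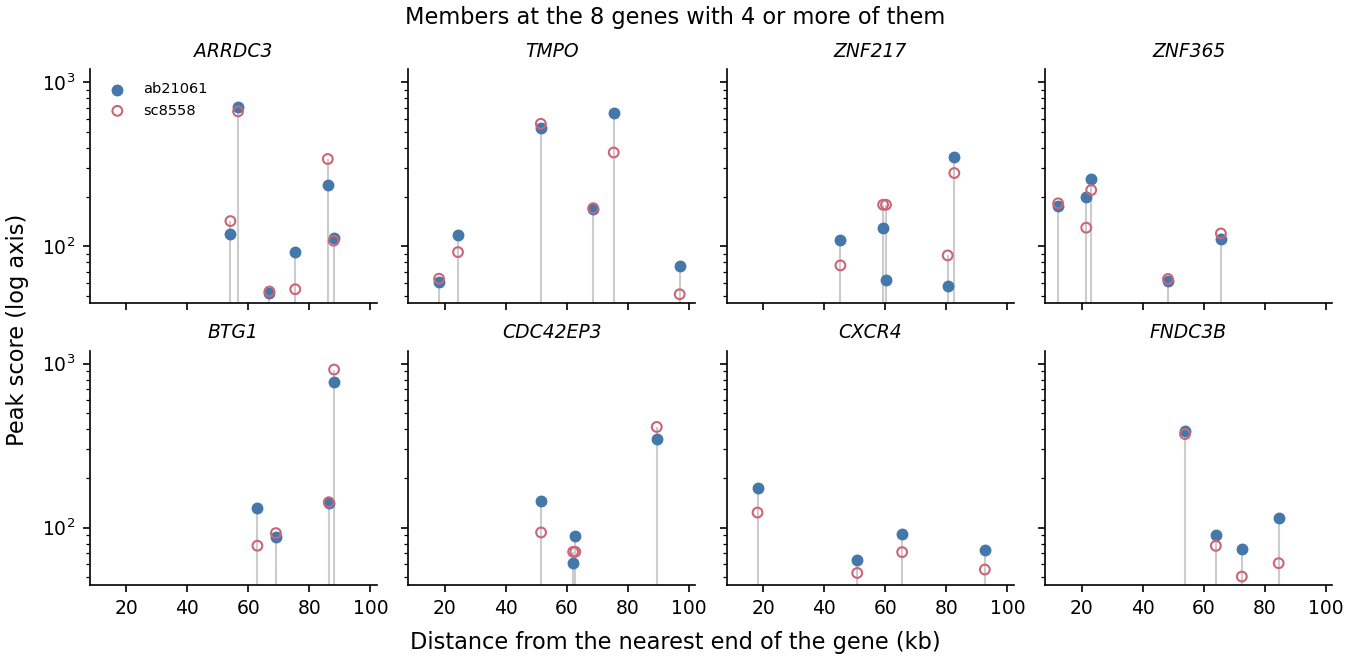
Deposited scores (log axis) of the regions at the 8 genes with 4 or more of them, against distance from the nearest end of the gene in kb, with ab21061 filled and sc8558 open. ARRDC3, TMPO and BTG1 each have a region over 500 with both antibodies, and at CXCR4 the highest score is 174.

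Genes of the blood program were looked up in 13 lists. A gene could be counted when it has sequence in the window, and the share over all such genes was 6.83%. Among myeloid transcription factors 11 of 38 genes (28.9%) were nearest to a region, with 14 regions where an even spread over the sequence around these genes gives 5.00. Among regulators of signal feedback 7 of 24 genes (29.2%) were, with 13 regions against 3.36. Median ab21061 scores in these lists were 141 and 95.4, against 108 over all regions. The lists were drawn up with earlier results of these data known, and their counts are a description.

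Of the myeloid transcription factors, EGR2, which promotes the macrophage fate, had the strongest regions. They lay side by side 32.1 and 34.3 kb before its start on chromosome 10, from 62850114 to 62852479 and from 62852639 to 62854313, and scored 309 and 369.7, and 384 and 504. ETV6, an ETS family repressor, had a region at 53.4 kb before its start (216 and 206). IKZF1, which encodes Ikaros, had one at 36.2 kb before its start (192 and 199), and LMO2, a bridging factor of stem cell complexes, one at 39.0 kb (190.4 and 173). HHEX, a homeobox gene, had regions at 60.5 and 65.1 kb (141 and 86.2, and 141 and 139.8).

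The AP-1 genes had regions as well. JUN had one at 32.2 kb before its start (182 and 163) besides the one at 99.4 kb, and FOS had one at 52.3 kb past its finish (122 and 142). KLF4, a monocyte factor, had a weak one at 27.4 kb (58.5 and 58.1). GFI1 itself had a region 13.1 kb past its finish on chromosome 1 from 92459427 to 92460395 (134 and 115). GFI1B, its paralog in red cells and platelets, had one 15.5 kb past its finish (108 and 90). The remaining gene was MYC, with a region 88.3 kb away (105 and 92.9).

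The 13 regions of the signal feedback genes lay at fewer genes than the 14 of the myeloid transcription factors, with a median ab21061 score of 95.4 against 141. SPRY2, an inhibitor of receptor tyrosine kinase signals, had one at 58.4 kb (108 and 114) and the one at 99.8 kb, which ranked 62 of the 986 regions with ab21061 and 336 with sc8558. SPRY4 had one at 32.0 kb (163 and 90.6) and SPRY1 a pair at 40.8 and 46.0 kb that stayed at or below 79.3. DUSP5, a phosphatase that acts on ERK, had 3, at 21.5, 24.7 and 85.2 kb, with ab21061 scores of 95.4, 170.3 and 97.3 and sc8558 scores of 152, 96.0 and 107. DUSP6 had 1 at 13.0 kb (50.1 and 72.9). TNFAIP3, which encodes the NF-kB inhibitor A20, had 3, and the farthest, 92.4 kb before the start, was the highest (88.9 and 158). NFKBIZ had 1 at 37.9 kb (120.1 and 133).

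Receptor and effector genes of myeloid cells had fewer. Among cytokine and chemokine receptors 3 of 25 genes (12%) were nearest to a region, CXCR4, IL10RA (12.6 kb before its start, 249 and 320.0) and CCR2 (37.6 kb, 52.8 and 126). Among monocyte and macrophage genes 3 of 21 (14.3%) were, CCR2, CD163 (53.6 kb, 99.7 and 94) and FCGR3A. FCGR3A, an immunoglobulin receptor, had a region at 10.7 kb with 187 and 359.7 and a weak one at 21.1 kb, in a stretch of near-identical Fc receptor genes where reads are hard to place. Among neutrophil granule and effector genes 2 of 26 (7.69%) were, LYZ, the lysozyme gene (10.1 kb, 476 and 416, on chromosome 12 from 69337772 to 69338874), and BPI, a bactericidal granule protein (15.8 kb, 125 and 116).

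The other lists lay near the share of 6.83% or held 1 or 2 genes. Of the apoptosis genes 2 of 21 were nearest to a region, TNFSF10, the TRAIL ligand (35.8 kb, 129.7 and 196, with a weaker neighbour at 36.7 kb), and FASLG (79.4 kb, 103 and 68.5). Stem cell and HOX genes had 2 of 18, LMO2 and SPINK2 (36.2 kb, 53.4 and 125). Single genes were TFRC, the transferrin receptor (59.7 kb, 361 and 499), among 13 erythroid and megakaryocytic genes, CDK1 (14.4 kb, 157 and 141) among 19 cell cycle genes and CD2 (48.4 kb, 143 and 98.1) among 14 lymphoid genes. RXRA, a partner of retinoic acid receptors (49.8 kb, 77.8 and 101.9), was the only 1 of 19 retinoid and PML-RARA genes, and SNAI1, another SNAG domain repressor (12 kb, 61.9 and 91.8), the only 1 of 13 GFI1 partners and corepressors. Of 17 liver and neuron genes 0 were. With 3 counts taken as allowed by a 0, this allows a share of up to 17.6%, which is not an exact interval.

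**Figure D5:**
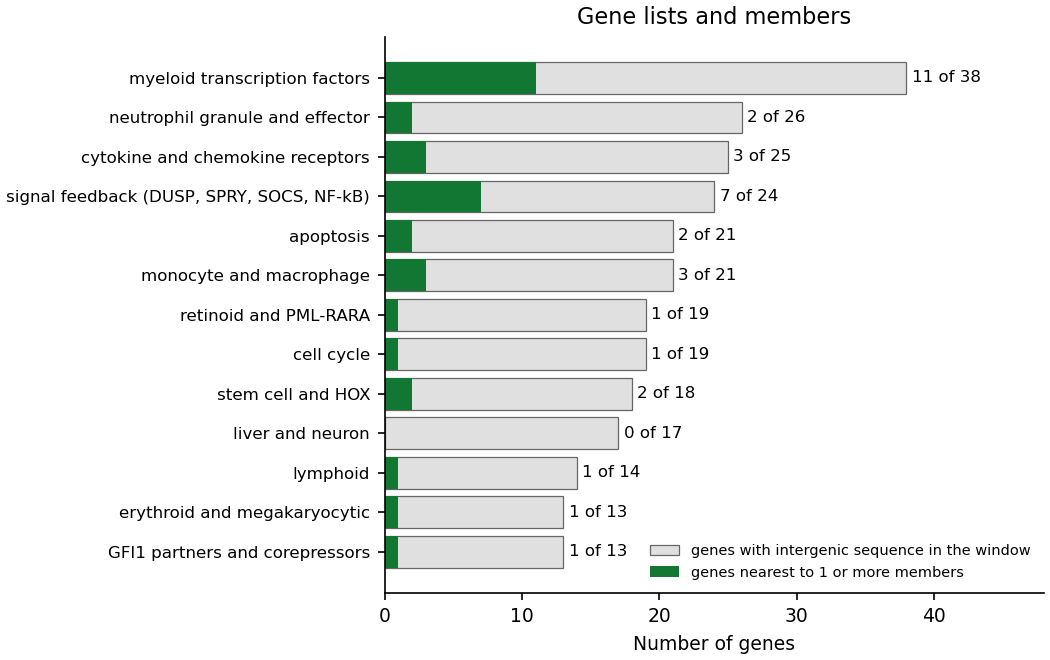
Number of genes in each of 13 lists that have sequence 10 to 100 kb from an end and outside genes (grey bars) and number nearest to at least 1 region (green bars). Myeloid transcription factors (11 of 38) and signal feedback genes (7 of 24) have the most.

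Genes of types other than protein-coding, which the choice of regions did not use, lay near many regions. Of the 986 regions 295 (29.9%, 27.1 to 32.9) had their midpoint inside such a gene, against 25.8% of the sequence of the class. Peaks of the class without a partner were inside such a gene more often, at 34.9% (30.8 to 39.2), and the difference of -5.00 points (-10 to -0.0788) did not include 0. Within 1 kb of an end of such a gene were 121 (12.3%, 10.3 to 14.5), against 6.30% of the sequence. This second share was 12.4% (9.71 to 15.5) among the 524 peaks of the class without a partner, a difference of -0.133 points (-3.77 to 3.23). Among shared peaks over 100 kb away it was 3.27% (2.30 to 4.50), where the sequence has 2.73%.

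Long non-coding RNA genes made up most of these, with 252 regions inside one and 74 within 1 kb of an end. Strength did not follow this nearness to an end, with median scores of 109 (92.8 to 127) and 122 (105 to 137) for the 121 regions and 107 (100 to 113) and 109 (105 to 114) for the others. Besides those shown above, the best-ranked regions inside or within 1 kb of such genes were in LINC02432 (the ZNF330 region), LOC107985743 (both LRRC8C regions), LOC124905012, 31.2 kb from EPCIP (527 and 616), and the T cell receptor beta locus, 81.9 kb from PRSS1 and beside MTRNR2L6, a copy of a mitochondrial RNA gene (583 and 659).

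Small RNA genes were also near some regions. Transfer RNA genes lay within 1 kb of 11 of the 986 regions, and small nuclear RNA genes within 1 kb of 7. The matching shares of the sequence and of other peaks were not computed, so these counts show no excess or lack. The strongest at a transfer RNA gene lay 279 bp from TRR-TCG2-1 on chromosome 6 from 26321854 to 26324484, in the histone gene cluster and 37.6 kb from H4C8, and scored 443 and 589. A region 23.5 kb from OSBP on chromosome 11 had 4 transfer RNA genes within 1 kb (109 and 85.3). The spliceosomal gene RNU5B-1 was 3 bp from the midpoint of a region with 140.3 and 92.8. Near GFI1B, a region on chromosome 9 from 133019266 to 133021066, nearest to GTF3C5 at 10.5 kb, lay 264 bp from the small nucleolar RNA gene SNORD141A (474 and 264). Transfer RNA and small nuclear RNA genes have near-identical copies, and the treatment of reads with several placements was not stated in the labels.

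The microRNA gene closest to a region was MIR7-3 on chromosome 19, whose hairpin from 4770670 to 4770779 began 709 bp past a weak region 22 kb from FEM1A (73.3 and 63.5). Its mature microRNA is shown with the seed, bases 2 to 8, in capitals.
hsa-miR-7-5p: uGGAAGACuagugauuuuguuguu

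A few regions were very wide. In the ab21061 list 13 regions exceeded 3 kb, 5 of them on chromosome 8, including the one near MYC. Others were the FRG2B region, the ZNF334 region (3365 and 3148 bp) and regions near MEF2A, a muscle and blood transcription factor gene (3500 bp, 479 and 530.2), SSPN (3690 bp, 463 and 468) and SULT2A1 (4100 bp, 314 and 475), the last 770 bp from the SNAR-A1 gene. Widths in the sc8558 list were much smaller for several of them, such as 1472 bp against 3975 bp near ZNF248 and 760 bp against 3032 bp near HJV.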

How the data were processed

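Peaks of 2 libraries of NB4 chromatin, 1 per antibody, were analysed. The authors' lists are on hg38, and the submitters' processing notes name Bowtie2 (2.2.9) besides MACS (1.4.2). For options, control and read filters, nothing was given in the sources used here. Each deposited score is the peak caller's value and was ranked within a list. Scores of both lists are printed side by side, and were added only to pick regions and chains to name. Depth is unknown.

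Overlap was counted from 1 bp. Where several sc8558 peaks overlapped, the one with the highest score was the partner. Gene positions came from RefSeq GRCh38.p14 (20037 protein-coding genes), strand and start windows from the RefSeq start table. Shares have exact Clopper-Pearson 95% intervals, differences Newcombe intervals, densities exact Poisson intervals and medians order-statistic intervals. The bound for the list with 0 genes is 3 divided by its number of genes. Intervals reflect counting error alone. No p-value was computed. Selection of regions was checked on simulated data. Software was scipy (1.17.1), pandas (2.3.3), numpy (2.4.6) and, for plots, matplotlib (3.10.9), under Python 3.11.15.

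Regions named were the 20 with the best worse rank of both lists, the 5 with the lowest summed score, 3 on either side of each limit, the 10 largest chains, genes with 4 or more regions, up to 3 regions per list and the 10 best-ranked at genes of other types. Further regions were named after their values were seen. Regions and lists were chosen with earlier results of these data known. Motifs were planned for whole peaks and were read in start windows only, since no genome was used here.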

Additional observations from a re-analysis of the deposited data

How the results depend on the processing

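Other definitions moved the main value in 15 comparisons, which include numbers of regions, shares, scores and widths. With 50% of both peaks overlapping, 62.1% of the class had a partner. When peaks scoring under 100 were dropped from each list there were 408 regions, 69.7% of the class had a partner, and median scores were 210 and 190 and widths 1049 and 972 bp, since weak peaks were removed. With genes of all types there were 586 regions (12% of shared peaks), with widths of 842 and 801 bp. From 5 to 100 kb the regions were 23.7% and from 10 to 50 kb 14.1% of shared peaks. Within 5 kb of an end of a gene of another type lay 32.9%. Counting either flanking gene, 53 list genes were reached in place of 33, by construction. Among values outside the main ones, such as counts per list, 9 comparisons moved and 5 did not. With either flanking gene, GFI1 partners and corepressors rose from 1 to 4 genes, and monocyte and macrophage genes from 3 to 5. Myeloid transcription factors (11 to 16) and signal feedback genes (7 to 10) stayed within 1.5 times. In 48 other comparisons of a main value with an alternative the value stayed within the interval of the main one, or the count within 1.5 times. The motif background limited to genes of other types was chosen after seeing the data. No replicate could be left out. Motif shares in wider windows were not run, for want of sequence.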
